A study of Mus musculus with 4 samples.

Results

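The chemokine receptors examined here are 9 genes, Ccr2, Ccr4, Ccr6, Ccr7, Ccr8, Ccr9, Cxcr3, Cxcr4 and Cxcr5, taken by symbol from the 55536 genes of the annotation. They were measured by polyA RNA-seq in regulatory T cells (Treg) that the labels call inflammation-experienced. The 4 libraries are technical replicates 1 to 4 of 1 biological replicate, made from primary cells of 1 biosample of a 6-month-old adult male mouse of the strain Foxp3CreERT2 x Rosa26YFP. The labels also give a bone marrow hematopoietic cell as the origin. In this strain Cre recombinase fused to a modified estrogen receptor is driven by Foxp3 and switches on a yellow fluorescent reporter, so a marked cell is one in which Foxp3 was active when the enzyme was induced. The stimulus behind the inflammation is not given in the sources used here. There is 1 group and no second condition, so levels are described and compared between receptors and between libraries. Any p-value measures only the spread between libraries of 1 biosample.

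Chemokine receptors are G protein-coupled receptors that cross the membrane as a bundle of helices. On binding a chemokine they activate the inhibitory G proteins, whose free beta-gamma subunits drive phosphoinositide 3-kinase and Rac and turn the cell towards higher chemokine concentrations. T cells that stay in lymphoid tissue and T cells that enter inflamed skin, gut or other tissue are known to carry different receptors, and Treg use the same receptors to reach the sites where they act. Messenger RNA levels do not show how much receptor stands on the cell surface, which also depends on internalisation and recycling.

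All 9 share the aspartate-arginine-tyrosine (DRY) motif at the inner end of the third helix, which couples the receptor to its G protein. The coding windows that begin at this motif are shown for 8 of them because they are the common core by which these genes belong to one family and also show how far their letters have drifted, which lets reads be assigned to one gene. Each window is 30 bases of the reference transcript with the largest share of its gene's level, 5′ to 3′ on the coding strand, with the 9 bases of the 3 motif codons in capitals.
Ccr7: GACCGCTACgtagccatcgtccaggccgtg
Cxcr3: GACAGATATctgagcatagtgcacgccacc
Cxcr5: GACCGGTACctagccatcgtccatgctgtt
Ccr6: GACCGGTACattgccatcgtccaggcaacc
Ccr9: GACAGATACattgccattgtacaggccatg
Ccr2: GATAGGTACttggctattgttcatgctgtg
Ccr4: GACAGATACctggccatcgtgcacgcggta
Cxcr4: GACCGGTACctcgctattgtccacgccacc
These sequences come from the GENCODE M21 transcripts on mm10. Of the 30 positions, 14 held the same base in all 8 genes. The motif itself was written in 5 different ways. Over the 28 pairs of these genes, between 16 and 25 bases matched. Ccr7 and Cxcr5, the pair that guides lymphocytes inside lymphoid organs, matched at 25, and Cxcr3 and Ccr2 matched at 16. The windows lie at chr11:99145609-99145638 for Ccr7, chrX:101732587-101732616 for Cxcr3, chr9:44513888-44513917 for Cxcr5 and chr17:8256364-8256393 for Ccr6. Those of the others lie at chr9:123779681-123779710 for Ccr9, chr9:124106132-124106161 for Ccr2, chr9:114492567-114492596 for Ccr4 and chr1:128589491-128589520 for Cxcr4. In each gene the window falls in a coding exon.

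The genes are spread over 5 chromosomes, and 5 of the 9 lie on chromosome 9. In mm10 coordinates, Ccr7 (ENSMUSG00000037944.8) spans chr11:99144196-99155077 on the minus strand, Cxcr3 (ENSMUSG00000050232.6) spans chrX:101731535-101734269 on the minus strand, and Cxcr4 (ENSMUSG00000045382.6) spans chr1:128588199-128592293 on the minus strand. Ccr6 (ENSMUSG00000040899.14) spans chr17:8236043-8257141 on the plus strand. On chromosome 9, Cxcr5 (ENSMUSG00000047880.15) spans chr9:44511787-44561877 on the minus strand and Ccr4 (ENSMUSG00000047898.7) spans chr9:114490316-114504916 on the minus strand. Ccr8 (ENSMUSG00000042262.5) spans chr9:120092114-120094906, Ccr9 (ENSMUSG00000029530.16) spans chr9:123678439-123784330 and Ccr2 (ENSMUSG00000049103.14) spans chr9:124101950-124113557, all on the plus strand.

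The libraries held 9284406, 9341272, 9325603 and 6648343 expected counts in libraries 1 to 4, so library 4 was the shallowest. The cell type label was checked against marker lists. All 6 T cell markers and all 6 Treg markers reached 10 TPM in every library (a transcript level corrected for length and for sequencing depth), with Foxp3, the transcription factor that defines Treg, at 20.3, 21.7, 32.8 and 36.4 TPM. The summed markers of other cells were lower, except that single genes stood above Foxp3, among them the cytotoxic cell gene Nkg7 at 139 ± 34.8 TPM. The 5 B cell markers summed to 87.8 to 171 TPM over the libraries, the 6 monocyte and macrophage markers to 8.07 to 32.0 TPM, the 6 CD8 and cytotoxic markers to 146 to 240 TPM and the 6 granulocyte markers to 0.110 to 8.91 TPM. None of the 6 dendritic cell markers reached 1 TPM on average. The erythroid markers summed to 1067 TPM in library 1, against 4.60, 38.6 and 17.5 TPM in libraries 2, 3 and 4. In such bulk samples, fewer cells carrying a receptor and less RNA per cell cannot be told apart.

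All 9 receptors were expressed at 1 TPM or more in all 4 libraries, and 8 of the 9, all but Cxcr4, at 10 TPM or more. Their median level was 54.1 ± 15.6 TPM (SD over the medians of the libraries, n = 4), against 12.8 TPM over the 13822 genes with a mean of at least 1 TPM. Their levels summed to 746 ± 71.9 TPM, of which Ccr7 held 36.6% ± 4.35 and the 3 highest, Ccr7, Cxcr3 and Cxcr5, held 69.1% ± 4.53. Receptors of lymphoid homing and of inflamed tissue stood side by side at the top of the list. In the order of means, Ccr7 was followed by Cxcr3, Cxcr5, Ccr6, Ccr8, Ccr9, Ccr2, Ccr4 and Cxcr4. Ccr7 was the highest and Cxcr4 the lowest in each library.

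**Figure D1:**
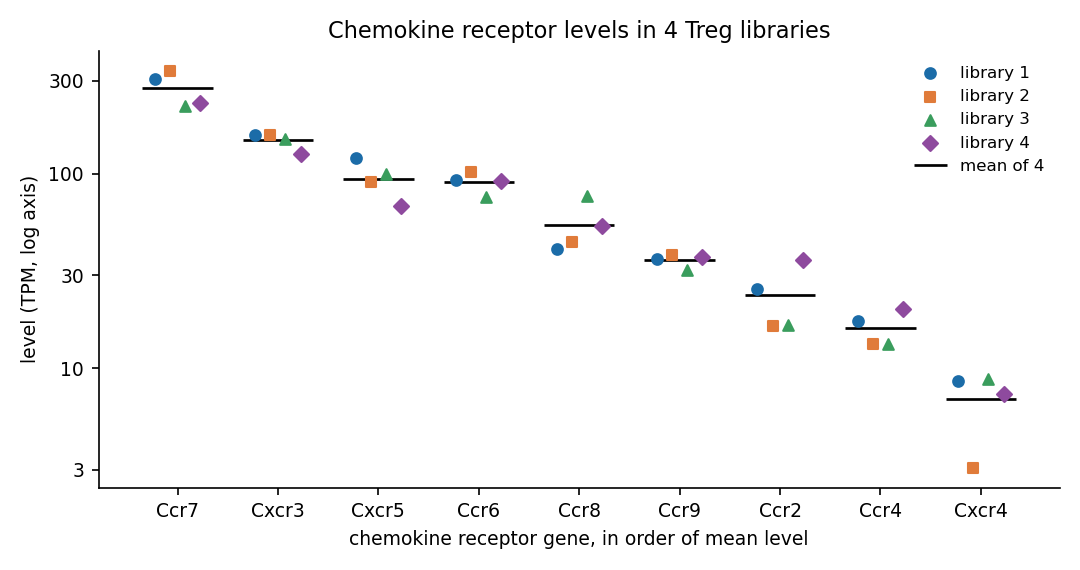
Level of each receptor in the 4 libraries, in TPM on a log axis, with points for libraries and a line at their mean. Ccr7 sits between 224 and 339 TPM and Cxcr4 between 3.06 and 8.82 TPM, while the points of Cxcr5 and Ccr6 overlap.

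Of the receptors for lymphoid tissue, Ccr7 binds Ccl19 and Ccl21 and brings naive and central memory T cells into lymph nodes. It had 306, 339, 224 and 230.4 TPM in libraries 1 to 4, a mean of 275 ± 56.8 TPM (n = 4), resting on 2256 to 4824 expected counts. Libraries 1 and 2 were high and libraries 3 and 4 low, with no overlap with any other receptor. This mean stood above 96.1% of the protein-coding genes at 1 TPM or more. Its ligand genes Ccl19 and Ccl21a had 0 counts in every library. A count of 0 allows up to 0.451 CPM (counts scaled to library size) in the shallowest library, and reads from the near-identical copies of Ccl21a may have been split. By overall likeness of level across the 4 libraries, the 2 nuclear protein-coding genes closest to Ccr7 among 22014 were Fermt3 and Arf1. Fermt3 encodes the integrin activator kindlin-3 and averaged 267 ± 39.0 TPM. Arf1, which encodes a small GTPase of vesicle budding, averaged 276 ± 44.2 TPM. Their root mean square differences from Ccr7 were 0.11 and 0.12 on the log2(TPM + 1) scale.

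Cxcr5 binds Cxcl13 and leads lymphocytes into B cell follicles, and on Treg it is a mark of follicular regulatory cells. It had 120.3, 90.6, 99.1 and 67.9 TPM, a mean of 94.5 ± 21.7 TPM (n = 4). Library 1 was highest and library 4 lowest, a span of 1.77-fold. B cells also carry Cxcr5, Ccr6 and Ccr7. The 5 B cell markers summed to 171, 122, 87.8 and 148 TPM in libraries 1 to 4, and their part in the levels of Cxcr5, Ccr6 and Ccr7 was not tested. The B cell receptor component Cd79b was the highest of these markers at 79.1 ± 14.8 TPM. Cxcl13 was found at 0, 0, 0.670 and 0.940 TPM.

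Cxcr4 binds Cxcl12, the chemokine that holds cells in the bone marrow. Its levels were 8.60, 3.06, 8.82 and 7.36 TPM, a mean of 6.96 ± 2.68 TPM (n = 4). Library 2 stood low, with 36 expected counts, against 94, 104 and 62 in libraries 1, 3 and 4. Cxcr4 therefore rests on the fewest counts of the 9, 296 in all, and the other 3 libraries lay between 7.36 and 8.82 TPM. Cxcl12 was at 0 to 0.0900 TPM. The genes closest to Cxcr4 in level across libraries were Arl5b at 7.13 ± 2.44 TPM and Avl9 at 6.59 ± 2.70 TPM, both genes of vesicle traffic, with root mean square differences of 0.088 and 0.10 on the log2(TPM + 1) scale.

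Among the receptors for inflamed tissue, Cxcr3 binds the interferon-induced chemokines Cxcl9, Cxcl10 and Cxcl11 and marks T helper 1 cells and the Treg that accompany them. Cxcr3 had 159, 159, 151 and 126 TPM, a mean of 149 ± 15.6 TPM (n = 4). Libraries 1, 2 and 3 lay close together and library 4 lower. Its ligand gene Cxcl10 was measured in the same libraries at 16.2, 13.7, 24.5 and 23.6 TPM. Cxcl11 averaged 0.845 ± 0.383 TPM, and Cxcl9 was seen in library 4 only, with 3 counts.

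Ccr6 binds Ccl20 and is known from T helper 17 cells and from Treg of mucosal tissue. It had 93.3, 103, 75.8 and 91.9 TPM, a mean of 90.9 ± 11.1 TPM (n = 4). Its 4 values fell within a span of 1.35-fold and overlapped those of Cxcr5 in each direction. Ccl20 was measured at 10.4, 10.3, 8.54 and 11.5 TPM.

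Ccr2 binds Ccl2, Ccl7 and Ccl12, is best known from inflammatory monocytes and is also carried by effector T cells. Its levels were 25.6, 16.4, 16.7 and 36.1 TPM, a mean of 23.7 ± 9.29 TPM (n = 4). Libraries 1 and 4 were high and libraries 2 and 3 low. The 6 monocyte and macrophage markers summed to 32.0, 11.1, 8.07 and 19.5 TPM in libraries 1 to 4. Most of the sum in libraries 1 and 4 came from Lyz2, which encodes lysozyme, at 21.9, 4.33, 4.00 and 13.4 TPM. Csf1r, at 2.05, 1.59, 0.330 and 1.68 TPM, and Cd68, at 6.13, 3.94, 2.85 and 4.01 TPM, were also highest in libraries 1 and 4. Unlike Ccr2, Lyz2, Csf1r and Cd68 were higher in library 1 than in library 4. Itgam was at 0.620, 0.0700, 0.890 and 0.160 TPM, Adgre1 at 1.04, 0.880, 0 and 0.310 TPM and Cd14 at 0.200, 0.260, 0 and 0 TPM. These did not share the pattern of Ccr2. The part of the 6 markers in the level of Ccr2 was not tested. Ccl2 and Ccl12 had at most 1 count in any library and Ccl7 had none.

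Ccr8 and Ccr4 are receptors of skin and of type 2 responses, and Ccr8 is known as a marker of activated Treg in tissues and tumours. Ccr8 had 41.2, 44.6, 77.2 and 53.6 TPM, a mean of 54.1 ± 16.2 TPM (n = 4). Library 3 was highest, at 1.87 times the level of library 1. The 6 Treg markers summed to 1632, 1808, 2159 and 1860 TPM, also highest in library 3, but their members differed. Ikzf2, Tnfrsf18 and Tnfrsf4 were highest in library 3, Foxp3 and Ctla4 in library 4, and Il2ra in library 1. Their part in the level of Ccr8 was not tested. Of the Ccr8 ligands, Ccl1 was present at 14.6, 7.44, 22.8 and 14.3 TPM, also highest in library 3, and Ccl8 averaged 0.830 ± 0.938 TPM. The genes closest to Ccr8 in level across the libraries were Fyttd1 at 54.8 ± 12.0 TPM, which encodes an mRNA export factor, and Ktn1 at 53.7 ± 9.42 TPM, which encodes kinectin. Their root mean square differences were 0.11 and 0.15 on the log2(TPM + 1) scale.

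Ccr4 binds Ccl17 and Ccl22, the chemokines by which dendritic cells attract Treg. It had 17.5, 13.4, 13.3 and 20.0 TPM, a mean of 16.0 ± 3.30 TPM (n = 4). Libraries 1 and 4 were above libraries 2 and 3, the same pattern as for Ccr2 at a lower level. Its ligand genes were near the limit of detection, with 1 count of Ccl17 and 2 counts of Ccl22, all in library 4.

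Ccr9 binds Ccl25 and directs T cells to the small intestine and progenitors to the thymus. It had 36.6, 38.2, 32.1 and 37.4 TPM, a mean of 36.1 ± 2.75 TPM (n = 4). This was the narrowest spread of the 9, at 7.63% of the mean, against 39.2% for Ccr2 and 38.5% for Cxcr4. Ccl25 was measured at 8.54, 8.39, 9.78 and 10.5 TPM.

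Neighbours in this order were compared within each library as log2 ratios of TPM + 0.1, called beyond the spread where the sign held in 4 of 4 libraries and the mean exceeded 2 SD. The order came from the mean TPM of these same 4 libraries, so the direction of each mean ratio was largely set in advance. By this rule 2 of the 8 neighbouring pairs differed. Ccr7 exceeded Cxcr3 by 0.87 ± 0.22, and Cxcr3 exceeded Cxcr5 by 0.68 ± 0.22 (SD, n = 4). Without length correction, in CPM, Cxcr3 over Cxcr5 was 0.15 ± 0.22 and no longer past the rule. In the exact sign-flip permutation test (two-sided), each gave p = 0.125, adjusted over the 8 pairs to 0.167, and 0.125 is the smallest p that 4 libraries allow. The other 6 pairs did not pass the rule. Cxcr5 and Ccr6 changed places between libraries, with a mean log2 ratio of 0.03 ± 0.41 and an exact p of 1. Ccr6 exceeded Ccr8 in 3 of 4 libraries, by 0.78 ± 0.57 with an exact p of 0.25. In library 3 the ratio was -0.02, and without that library it was 1.05 ± 0.24 and past the rule. Ccr8 over Ccr9, Ccr9 over Ccr2, Ccr2 over Ccr4 and Ccr4 over Cxcr4 kept one sign in 4 of 4 libraries, with ratios of 0.54 ± 0.50, 0.68 ± 0.51, 0.50 ± 0.25 and 1.28 ± 0.64, an exact p of 0.125 each. Between 2 and 5 pairs passed the rule when 1 library was left out, the most without library 3. Ccr2 over Ccr4 passed without any one of libraries 2, 3 and 4, Ccr4 over Cxcr4 without library 2 or 3, and Ccr9 over Ccr2 without library 4. With a pseudocount of 1 in place of 0.1, Ccr4 over Cxcr4 also passed, at 1.16 ± 0.55.

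The receptors also varied between the libraries. Each of the 9 differed in its share of counts beyond counting error, by a Poisson likelihood ratio test over library sizes scaled with edgeR and adjusted over all 13045 genes tested. Of those genes 68.4% were called as well, so a call is the usual outcome in these libraries. The smallest adjusted p was 2.96e-150 for Ccr7 and the largest 4.74e-05 for Ccr9. Without library 2, Cxcr4 was no longer called (adjusted p = 0.591) while the other 8 were. The median SD of log2 normalized counts was 0.33 for the 9 receptors and 0.26 for the genes tested. By this SD, Cxcr4 stood above 92.2% and Ccr2 above 84.5% of the genes tested. Ccr8, Ccr7, Ccr4 and Cxcr5 stood above 72.0%, 70.3%, 65.4% and 63.6% of them, and Ccr6 and Cxcr3 above 41.1% and 36.7%. A span of at least 2-fold between the lowest and highest library was met by 2 of the 9, Ccr2 at 2.14-fold and Cxcr4 at 2.64-fold, and by 19.9% of all tested genes. For Ccr2, normalized counts were 61.8, 44.8, 41.1 and 87.8 CPM. For Cxcr4 they were 10.4, 4.05, 10.7 and 9.02 CPM. Library 2 had the highest normalized count of 4 receptors, Ccr7, Cxcr3, Ccr6 and Ccr9, and library 3 the lowest of 5, Ccr7, Ccr6, Ccr9, Ccr2 and Ccr4. Ccr9 varied least, with an SD of 0.14 on the log2 scale, which 16.9% of the tested genes stayed at or below.

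**Figure D2:**
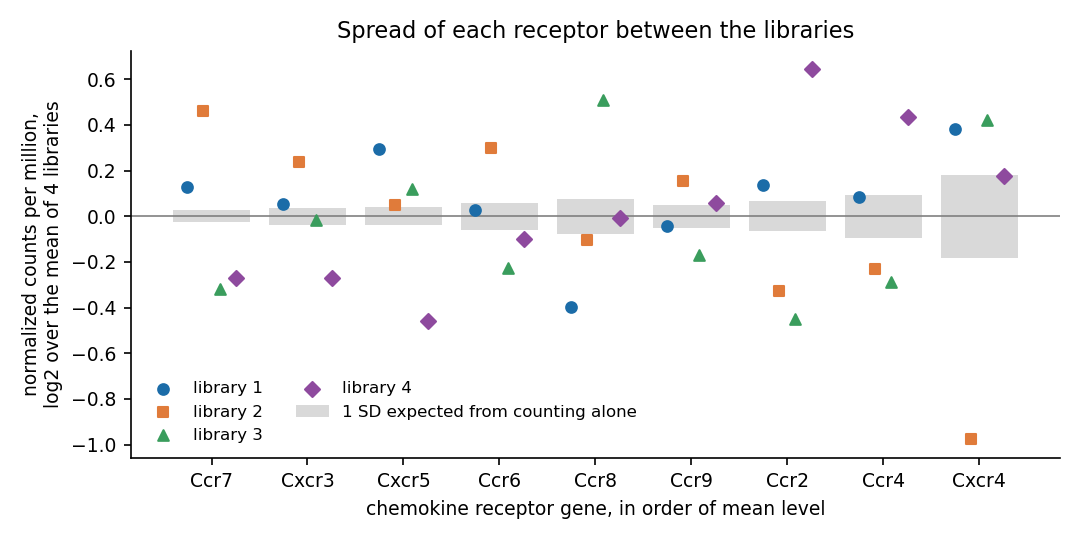
Normalized counts (CPM) of each receptor in the 4 libraries, as log2 over the mean of the log2 values, with a grey bar for 1 SD either way from counting alone. Cxcr4 in library 2 stands farthest below its mean, Ccr2 in library 4 farthest above, and the points of Ccr9 stay closest to 0.

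The authors' tables rest on annotated transcripts, and for 6 of the 9 receptors more than 1 is annotated. Ccr7, Cxcr3 and Ccr8 have 1 each. In 8 of the 9 genes, every transcript annotated as complete carries the same coding sequence, so these transcripts differ outside it. The exception is Ccr9, where Ccr9-201 has 1071 coding bases and the others 1107, and Ccr9-201 held 0.550% of the level. The coding sequences run from 1059 bases for Ccr8 to 1134 bases for Ccr7.

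The receptor with the most divided level was Ccr6, with 9 annotated transcripts that start in 4 groups along the gene. The group farthest upstream, Ccr6-202 and Ccr6-207, held 53.0% ± 3.63 of the gene's TPM (n = 4). The start next in line, that of Ccr6-201, held 8.94% ± 1.67, and the third group, Ccr6-203 to Ccr6-206, held 36.1% ± 2.79. In the authors' second transcript table, made from the reads and an index, the shares of these groups were 62.8% ± 2.57, 10.9% ± 1.21 and 16.9% ± 3.20. The upstream group therefore led in both tables, and the share of the third differed between them by over 2-fold. Ccr6-207 is a short incomplete transcript of 419 bases. It took 5.38% of the counts of Ccr6 but 21.2% ± 4.16 of its TPM, since TPM divides by length, and 33.9% ± 1.85 in the second table. Complete coding transcripts of Ccr6 together had 71.5 ± 8.27 TPM.

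RefSeq places 2 promoter windows on Ccr6 (GRCm38.p6, plus strand), each from 250 bases before to 50 bases after a start, and each is set on one of these annotated starts. They are shown because the level of Ccr6 is divided among its starts. The first lies at chr17:8235793-8236092 and is set on the start of Ccr6-207, while that of Ccr6-202 falls past its end. The second lies at chr17:8242276-8242575 and is set on the start of Ccr6-201. Capitals mark a match to a searched motif.
Ccr6 upstream window: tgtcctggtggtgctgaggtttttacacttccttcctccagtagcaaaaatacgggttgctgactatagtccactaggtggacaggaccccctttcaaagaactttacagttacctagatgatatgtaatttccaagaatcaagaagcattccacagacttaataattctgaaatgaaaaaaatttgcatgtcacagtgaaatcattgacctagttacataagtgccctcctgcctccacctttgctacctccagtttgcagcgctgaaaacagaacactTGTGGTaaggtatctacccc
Ccr6 downstream window: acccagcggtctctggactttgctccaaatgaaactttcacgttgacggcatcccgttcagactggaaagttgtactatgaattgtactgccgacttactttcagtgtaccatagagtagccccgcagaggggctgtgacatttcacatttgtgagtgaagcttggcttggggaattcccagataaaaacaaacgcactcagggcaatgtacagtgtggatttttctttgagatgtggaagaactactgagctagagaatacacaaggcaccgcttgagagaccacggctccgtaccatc
The upstream window has 42.3% G and C and 2 CpG, and the downstream window 47.7% and 10 CpG, against a median of 52.7% and 7 CpG over 32851 windows of the same length. Windows were found for 7 of the 9 receptors, 8 in all. They were searched on both strands for 4 motifs, and a match describes letters only. The Runx letters TGTGGT occurred in the upstream Ccr6 window, 30 bases after the start, and in that of Cxcr3, and in 16.8% of all windows. The TATA letters TATAAA and the GC-box letters GGGCGG occurred among the receptors only in the window of Cxcr4, and in 13.6% and 35.7% of all windows. The Cxcr4 window holds TATAAA on both strands, at places that overlap. The forkhead letters TGTTTAC were in none of the 8 windows and in 3.65% of all windows.

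Ccr2 was divided between transcripts of several exons and one of a single exon. Ccr2-202, a single-exon transcript that starts within the gene, held 39.4%, 37.4%, 51.8% and 60.0% of the TPM of Ccr2 in libraries 1 to 4, a mean of 47.1% ± 10.7. Ccr2-201, with 3 exons, held 42.2%, 44.9%, 35.1% and 21.9%. The first was ahead in libraries 3 and 4 and the second in libraries 1 and 2. All 4 annotated Ccr2 transcripts contain the same 1119 coding bases. Of Ccr4, Ccr4-201 held 66.6% ± 10.9 and Ccr4-202, which starts downstream and has the same coding bases, 33.4% ± 10.9. The share of Ccr4-202 was 46.1% in library 2 and 19.4% in library 4.

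Ccr9 was led by Ccr9-204 at 68.3% ± 4.45, followed by Ccr9-203 at 14.9% ± 3.77. The noncoding Ccr9-206, annotated as a retained intron, held 13.1% ± 3.78 of the TPM and 18.0% of the counts. Cxcr5 was led by Cxcr5-201 at 81.6% ± 9.35. A second Cxcr5 start upstream, that of Cxcr5-202, held 9.24% ± 8.45, and was listed at 0 in the table made from reads and an index. The short incomplete Cxcr5-205, of 358 bases, held 8.51% ± 3.63 of the TPM but 0.720% of the counts. Cxcr4 was led by Cxcr4-201 at 89.1% ± 3.06, and the incomplete Cxcr4-202 held the rest.

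**Figure D3:**
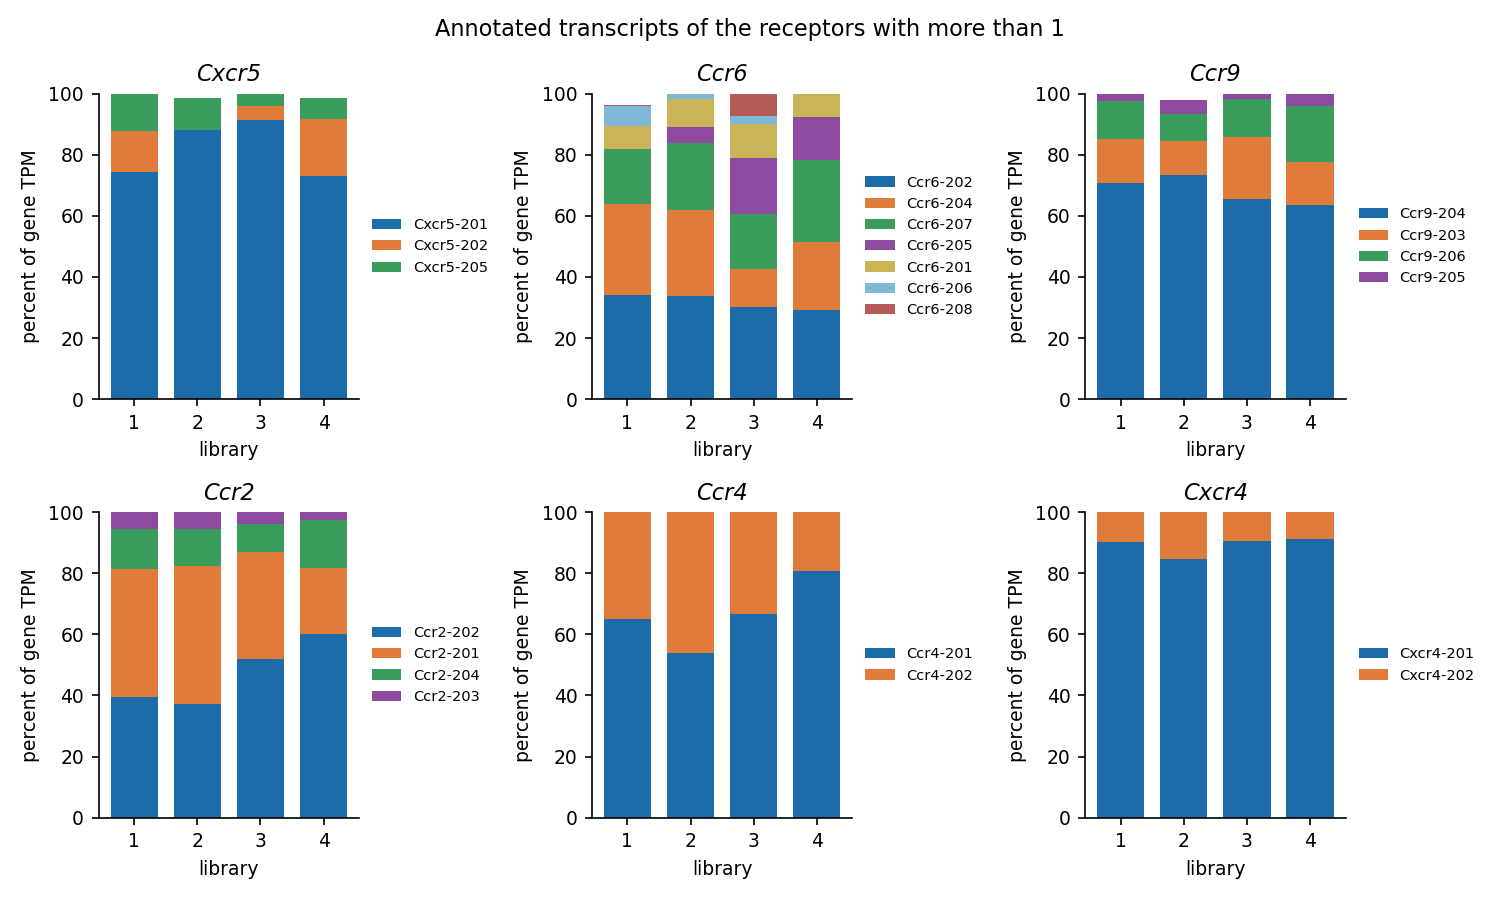
Percent of each gene's TPM held by its annotated transcripts in libraries 1 to 4, for the 6 receptors with more than 1 transcript, with transcripts under 1% on average left out. Ccr6 is split among 7 transcripts, Ccr2-202 and Ccr2-201 change places between libraries, and Cxcr4-201 holds most of Cxcr4 in every library.

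The receptors kept their broad order in the other deposited tables. Ccr7 was highest and Cxcr3 second in every library of the table made from reads and an index and of the length-scaled M4 counts. Cxcr4 was not the lowest in library 3 of either. There Ccr4 was lowest in the table made from reads and an index, and Ccr2 in the length-scaled M4 counts. The table made from reads and an index put Ccr7 at 208 ± 46.1 TPM, Cxcr3 at 116 ± 13.8 TPM and Cxcr4 at 9.66 ± 3.79 TPM, rescaled to the coding total of the main table. Cxcr4 alone rose there, to 1.39 times its main level, while the others stood at 0.758 (Ccr7) to 0.927 (Ccr6) of theirs. Cxcr4 had 222, 90, 219 and 120 estimated counts in libraries 1 to 4 of that table, against 94, 36, 104 and 62 in the main one. The whole-number counts on the older M4 annotation, scaled by length, put Ccr8 at 98.4 ± 30.7, Ccr6 at 133 ± 14.6 and Cxcr3 at 190.0 ± 21.2 on the TPM scale. In CPM, M4 over M21 was 1.91-fold for Ccr8, 1.56-fold for Ccr6 and 1.36-fold for Cxcr3, higher in all 4 libraries as it was for Ccr7. It was 0.583-fold for Ccr9, 0.617-fold for Ccr2 and 0.768-fold for Cxcr5, lower in all 4 libraries. On the log2 scale the ratio of Ccr7 was 0.17, near the median of 0.15 over the 10049 genes compared. None of the 9 passed 2-fold in one direction in all 4 libraries, against 10.1% of the 10049 genes compared. In the M4 counts the share of all 9 receptors again differed between libraries beyond counting error, as did that of 78.4% of 10910 genes. In those counts Cxcr5 fell below Ccr6, with a log2 ratio of -0.99 ± 0.35.

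**Figure D4:**
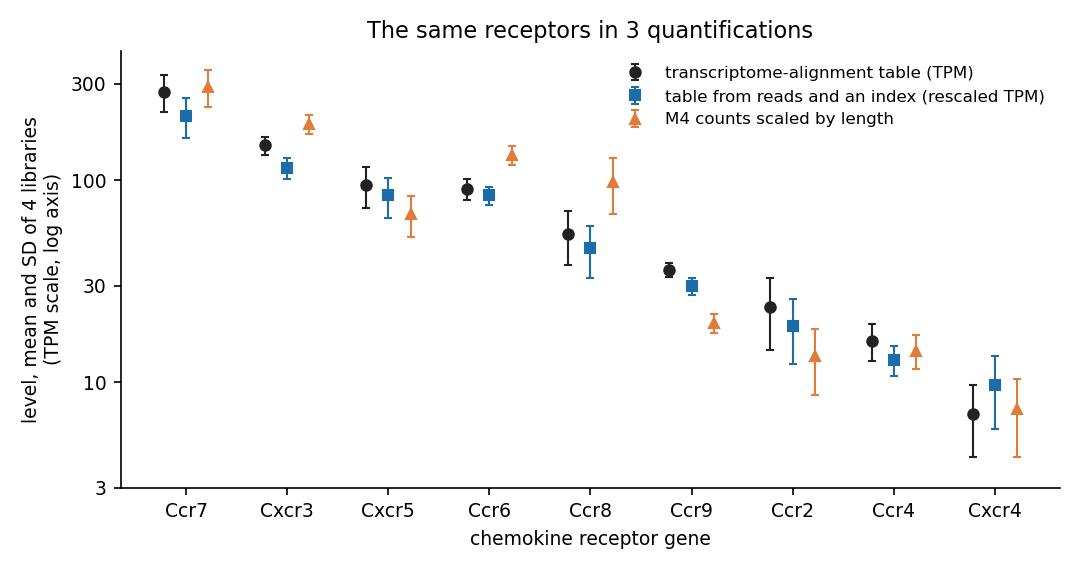
Mean level and SD over 4 libraries of each receptor in 3 quantifications, on a log axis in TPM or on its scale. Ccr7 is highest in all 3, Ccr8 has its highest value from the M4 counts, and Ccr9 and Ccr2 have their lowest values there.

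Several receptor genes share sequence or position with other genes. Stretches of 31 bases that also occur in transcripts of another gene, on either strand, made up 21.7% of those of Ccr9, 3.48% of those of Ccr2 and 2.42% of those of Cxcr5, and no such stretch was found in Ccr7, Cxcr3 or Ccr8. The longest shared run in Ccr2 was 152 bases, and reads inside such a run cannot be assigned to one gene. The level of Ccr2 was 19.0 ± 6.77 TPM in the table made from reads and an index, against 23.7 ± 9.29 TPM in the main one. This was 0.802 of the main level. Ccr7, Cxcr3 and Ccr8, which hold no such stretch, stood at 0.758, 0.777 and 0.850 of theirs. The part of the shared run in the level of Ccr2 was not tested. In Ccr9 most of the shared stretches lie in AC165425.1, a gene on the opposite strand that had 0.113 ± 0.225 TPM. The span of Ccr9 also overlaps Lztfl1 on the opposite strand, at 43.7 ± 11.0 TPM, but only through Ccr9-202, a transcript with 0 counts in every library. Cxcr5 overlaps Bcl9l, which encodes a Wnt pathway coactivator and lies on the opposite strand, with a shared run of 110 bases, and Bcl9l stood at 11.6 ± 1.71 TPM. Whether the counting used the strand is not given in the sources used here, so reads in the overlaps with AC165425.1 and Bcl9l cannot be told apart, and the levels of Ccr9 and Cxcr5 are uncertain to that extent.

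Of 8 other chemokine receptor genes, 1 reached 1 TPM in all 4 libraries, Cxcr6, the receptor of the membrane-bound chemokine Cxcl16. Cxcr6 had 147, 116, 126 and 157 TPM, a mean of 136 ± 18.6 TPM (n = 4), which places it between Cxcr3 and Cxcr5. The median of these 8 other receptor genes was 0.474 ± 0.254 TPM, and Cxcr1 had 0 counts in all libraries. Atypical receptors do not signal through G proteins. Of the 5 genes listed as such, 1 reached 1 TPM in all 4 libraries, Ccrl2 at 11.8 ± 2.73 TPM. The list of 16 ligands of the 9 receptors had 4 at 1 TPM or more in all 4 libraries, namely Cxcl10 at 19.5 ± 5.36 TPM, Ccl1 at 14.8 ± 6.27, Ccl20 at 10.2 ± 1.22 and Ccl25 at 9.30 ± 1.01. They bind Cxcr3, Ccr8, Ccr6 and Ccr9. Of 19 other ligand genes 4 did so, led by Ccl5 at 185 ± 41.3 TPM, with Xcl1 at 12.3 ± 7.30, Ccl27a at 7.81 ± 2.87 and Ccl4 at 5.03 ± 1.20. Ccl27a has near-identical copies, so its value is uncertain.

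**Figure D5:**
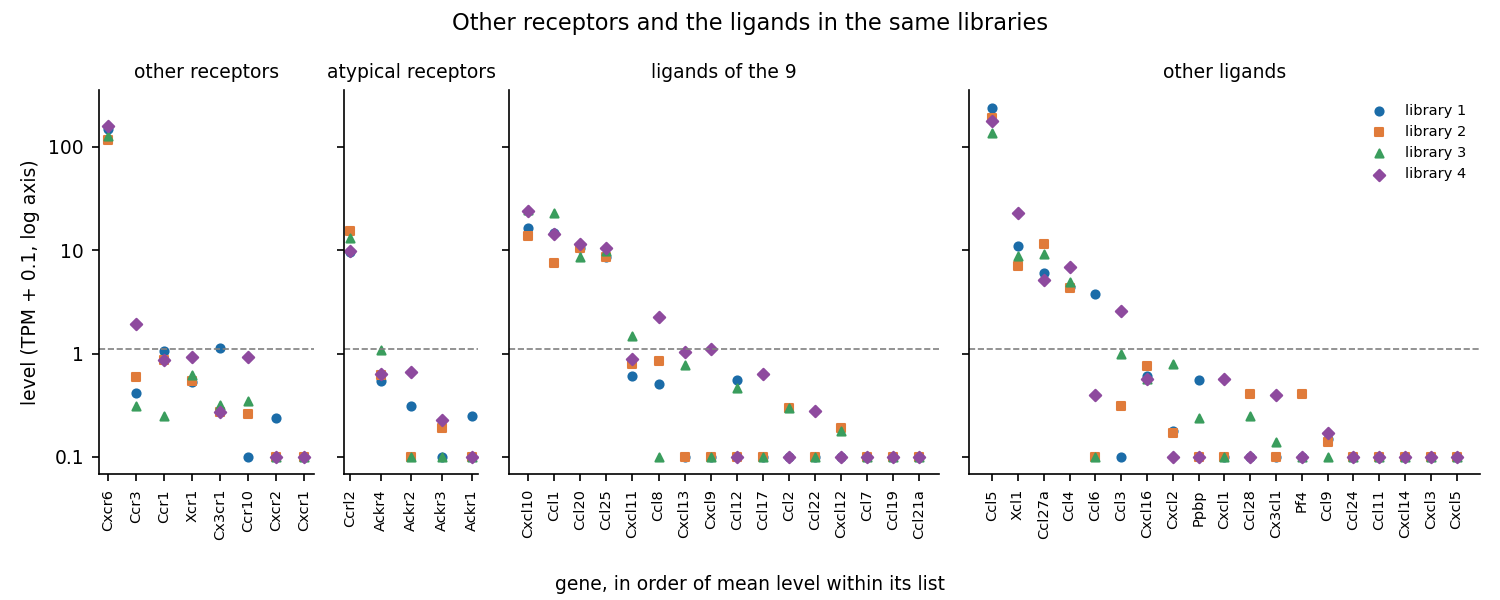
Levels of 8 other chemokine receptors, 5 atypical receptors, 16 ligands of the examined receptors and 19 other ligands in the 4 libraries, as TPM + 0.1 on a log axis, with a dashed line at 1 TPM. Cxcr6, at 116 to 157 TPM, and Ccl5, at 136 to 237 TPM, stand above the rest, and most genes of each list lie below the line.

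Downstream of the receptors, 22 of 25 listed signalling genes reached 1 TPM in all 4 libraries, with a median of 43.8 ± 7.15 TPM. Rac2, the Rac GTPase of blood cells, led at 2293 ± 107 TPM, and the actin regulator gene Coro1a followed at 1920 ± 206 TPM. Rassf5, which encodes the Rap1 effector that couples chemokine signals to integrins, had 318 ± 50.4 TPM, and Dock2, the Rac activator needed for lymphocyte migration, had 231 ± 26.2 TPM. Rap1a stood at 118 ± 18.4 TPM and the beta subunit gene Gnb1 at 101 ± 35.1 TPM. Of the inhibitory alpha subunits, Gnai2 had 98.1 ± 14.7 TPM and Gnai3 71.1 ± 9.02 TPM, while Gnai1 had 0 TPM in all libraries. These 3 genes, and those with 0 or few counts above, were named after their values were seen.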

How the data were processed

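PolyA RNA-seq was measured in 4 libraries of 1 group. Per the labels and the notes deposited beside the files, the authors used mm10. Their main tables hold expected counts and TPM, from a transcriptome alignment with GENCODE M21. A second deposited transcript table, made from reads and an index, gives estimated counts and TPM, and one more deposited table gives whole-number counts for genes of GENCODE M4. The percent values, each transcript's part of its gene's TPM, are the authors' as deposited. Which programs and strand settings made them is not given in the sources used here. The authors' effective lengths were used as another deposited value.

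The receptors, gene lists and rules were chosen with earlier results of these data known. All 9 receptors are named. A few listed genes and one sequence are not reported here. Of each other list, up to 6 members are named, the highest of those that reached 1 TPM in each library. Values are means ± SD over libraries. Rows outside the annotation (0.133% to 0.504% of counts) were left out. Expected counts were rounded, scaled by TMM (edgeR 4.0.16, R 4.3.3) and tested between libraries with a Poisson likelihood ratio test where the mean count reached 10 (Benjamini-Hochberg, 0.05). There was no second group for edgeR's quasi-likelihood test. Alternatives were DESeq2 1.42.0 size factors, no scaling, other count minimums, the other tables, CPM, a pseudocount of 1 and leaving out each library. For comparison with TPM, the second table was rescaled to the same total over nuclear protein-coding genes, and M4 counts were divided by M21 effective length (at least 50 bases) and scaled over 22195 matched genes. Genes most like a receptor had the smallest root mean square difference of log2(TPM + 1), given for the highest, middle and lowest receptor. Counts of 0 are given with the limit of 3 counts of the library, which covers counting error only.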

Additional observations from a re-analysis of the deposited data

Results flagged for a closer look

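Among 43 sets of 4 library values checked, 4 had one library far from the others by Dixon's criterion, which chance alone passes in about 1 of 20 sets. The total expected count was 6648343 in library 4, against 9284406 to 9341272 in the others. The share of Cxcr4-201 in the TPM of Cxcr4 was 84.6% in library 2, against 90.1% to 91.3% elsewhere, and correspondingly that of Cxcr4-202 was 15.4% there, against 8.73% to 9.86%. Library 2 holds 36 of the 296 expected counts of Cxcr4. The erythroid markers summed to 1067 TPM in library 1, against 4.60 to 38.6 TPM in the others. No level of the 9 receptors met the criterion.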

How the results depend on the processing

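The median level of the receptors was 54.1 TPM and 72.3 CPM (no length correction), and stayed within 1 SD in the other tables. Their summed level was 746 TPM in the main table, 609.7 in the table made from reads and an index, 835 from length-scaled M4 counts and 1071 in CPM. Without 1 library in turn, the median ran from 46.5 to 58.5 and the sum from 725 to 771. The count of neighbouring pairs beyond the spread in the direction of the main order was 2 in the main table and 4 in CPM. It was 3 with a pseudocount of 1 and 3 from length-scaled M4 counts. Without 1 library in turn it ran from 2 to 5. In CPM the call of Cxcr3 over Cxcr5 was lost, at 0.15 ± 0.22 (log2). Cxcr5 over Ccr6 was 0.03 (log2) in the main table, reversed to -0.99 ± 0.35 in the M4 counts and rose to 1.23 ± 0.36 in CPM. Ccr8 over Ccr9 was 0.54 in the main table, rose to 2.28 ± 0.56 in the M4 counts and reversed to -1.19 ± 0.47 in CPM. The reversed ratios passed the rule in the other direction and are not in the counts of pairs above. The cause was not tested, beyond that CPM carry no correction for the lengths of the transcripts. Effective lengths averaged 1004 bases for Ccr8, 3354 for Ccr9, 1560 for Cxcr3 and 2256 for Cxcr5. Of 27 receptor levels in other tables or units, 17 moved by over 1 SD, as did 6 of 12 leading-transcript shares. All 36 levels without 1 library stayed within it. The 9 receptors were called as differing between libraries under each setting run except without library 2, where Cxcr4 was not. Cxcr4 had the fewest counts of the 9, 296 in all.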
